A study of Homo sapiens with 53 samples.

Results

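TDRD7 and PRDM16 hold the most strongly enriched MBD3 sites of solvent-treated HEK293T cells, a human embryonic kidney line, among the peaks of ordinary local background. Both genes were selected on measured values: their MBD3 peaks under DMSO, the solvent, ranked 1 and 3 of 82358 by -log10 q, and 1 and 2 by fold enrichment. The members are the peaks of 10 lists that overlap 2 hg19 windows, chr9:100165000-100265000 for TDRD7 (100 kb) and chr1:2980000-3360000 for PRDM16 (380 kb). They number 823 of 706206 peaks, 21 at TDRD7 and 802 at PRDM16. Joined across lists where they overlap by at least 1 bp, they form 8 sites at TDRD7 and 320 at PRDM16, numbered below by position.

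The study used chromatin immunoprecipitation followed by sequencing (ChIP-seq) after 72 h in DMSO or in 30 µM of the compound BPK-25. CTCF and MBD3 were each immunoprecipitated from the parental HEK293T cells under both treatments with antibodies against the proteins themselves. TET1, TET2 and TET3 were immunoprecipitated under both treatments with a Flag antibody from 3 derived lines carrying the Flag-tagged protein, so the tagged protein, not the native one, was measured. The labels do not say whether such a line is 1 clone. Of 53 samples, 29 were immunoprecipitates and 24 sonicated input. Each immunoprecipitate group has 3 labelled samples, except TET2 under DMSO with 2, and each target and treatment has 1 peak list that pools its samples. No value below therefore has a spread between replicates, no test between treatments was possible, and intervals cover counting error only.

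MBD3 is a methyl-CpG-binding-domain protein and a subunit of NuRD, a complex that remodels nucleosomes and removes acetyl groups from histones. CTCF is a zinc-finger protein that binds a long DNA motif, acts at insulators and holds the bases of chromatin loops. The TET enzymes oxidise 5-methylcytosine, the first step of active DNA demethylation. BPK-25 is known from earlier work as a compound that lowers NuRD proteins in cells; protein levels were not analysed here. TDRD7 encodes a Tudor-domain protein of cytoplasmic RNA granules, known for its roles in male germ cells and in the lens. PRDM16 encodes a zinc-finger transcription regulator of the PR-domain family, known for its roles in brown fat, blood stem cells and craniofacial development. In the RefSeq table of GRCh38.p14, TDRD7 lies between the long non-coding RNA LOC286359 and TMOD1, and PRDM16 between PRDM16-DT and ARHGEF16.

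The promoter of TDRD7 is shown because, on common gene maps, the gene starts in the stretch of the strongest peaks. Its sequence comes from RefSeq in GRCh38.p14 and covers the 250 bases before the gene start, chr9:97411846-97412095 on the + strand. The peaks are in hg19, so no distance between them and these bases was measured. Capitals mark matches to AGGNGGC, letters from the core of the CTCF motif, searched on both strands.

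TDRD7: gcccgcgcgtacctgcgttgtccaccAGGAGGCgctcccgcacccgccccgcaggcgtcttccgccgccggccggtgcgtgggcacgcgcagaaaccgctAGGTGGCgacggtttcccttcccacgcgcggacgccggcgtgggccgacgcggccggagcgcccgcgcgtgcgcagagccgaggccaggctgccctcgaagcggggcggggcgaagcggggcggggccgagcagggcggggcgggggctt

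The sequence is GC-rich and dense in CpG, the dinucleotide that carries DNA methylation. It has 44 CpG dinucleotides and a GC content of 79.6%, against medians of 11 and 58% over 35116 RefSeq promoters cut to the same length. The motif matched at bases 27 to 33 and 101 to 107, both on the + strand. At least 1 match was found in 31.5% of the promoters and at least 2 in 8.40%, so such matches are common and describe the letters only.

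At the strongest site of TDRD7, MBD3 and CTCF were both very highly enriched under DMSO and both many times less enriched under BPK-25. Fold enrichment, the authors' ratio of the fragment pileup at a summit to the local background, was 145 for MBD3 under DMSO and 9.81 under BPK-25. For CTCF it was 328 under DMSO and 8.67 under BPK-25. The DMSO value was 14.7 times the BPK-25 value for MBD3 and 37.8 times for CTCF. By fold, the BPK-25 peaks of the site still ranked 2506 of 243213 for MBD3 and 4835 of 245419 for CTCF. The median folds of these BPK-25 lists were 3.77 and 3.71. No TET1, TET2 or TET3 peak was called there under either treatment.

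The DMSO MBD3 peak spanned chr9:100173977-100175142, and the CTCF peak chr9:100173717-100174901, with summits 43 bp apart. The MBD3 summit had a pileup of 672 fragments (95% exact Poisson interval 622 to 725) under DMSO and of 34 (23.5 to 47.5) under BPK-25. The CTCF summit had 1704 fragments (1624 to 1787) and 30 (20.2 to 42.8). The genome background of each list, the lowest local background in it and a measure of its depth, was 3.21 and 2.57 fragments for MBD3 and 3.68 and 2.58 for CTCF under DMSO and BPK-25. In units of this background, the MBD3 pileup was 209 with DMSO and 13.2 with BPK-25, and the CTCF pileup 463 and 11.6. The ratio of BPK-25 to DMSO was 0.0633 (0.0435 to 0.0894) for MBD3 and 0.0252 (0.0169 to 0.0360) for CTCF. Since the site was chosen by its DMSO MBD3 value, the MBD3 ratio and its interval are a description only.

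The summits stayed in place between treatments, 35 bp apart for MBD3 and 5 bp apart for CTCF. The DMSO peaks also held 2 smaller summits downstream, at 357 and 641 bp from the main MBD3 summit for MBD3 and at 369 and 657 bp from it for CTCF. Their fold enrichment was 10.0 and 3.84 for MBD3 and 5.33 and 3.64 for CTCF. Under BPK-25 the MBD3 list had 4.21 and 3.57 at 364 and 624 bp, and the CTCF list 5.31 at 363 bp. At these side summits MBD3 had the higher fold under DMSO and CTCF the higher fold at the one that both BPK-25 lists share, whereas CTCF was higher at the main summit under DMSO only.

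The strongest site of PRDM16 shared the high DMSO value of MBD3 but not that of CTCF. MBD3 fold enrichment was 102 under DMSO and 7.79 under BPK-25, a ratio of 13.1 between the treatments. CTCF fold enrichment was 5.48 under DMSO and 6.89 under BPK-25. By fold, the BPK-25 peaks of the site ranked 8576 of 243213 for MBD3 and 14434 of 245419 for CTCF. TET3 had a peak of fold enrichment 7.23 there under DMSO and none under BPK-25, and TET1 and TET2 had none under either treatment. In the plot of the strongest sites, MBD3 shows the same large gap between treatments at both genes and CTCF shows it at TDRD7 only.

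**Figure D1:**
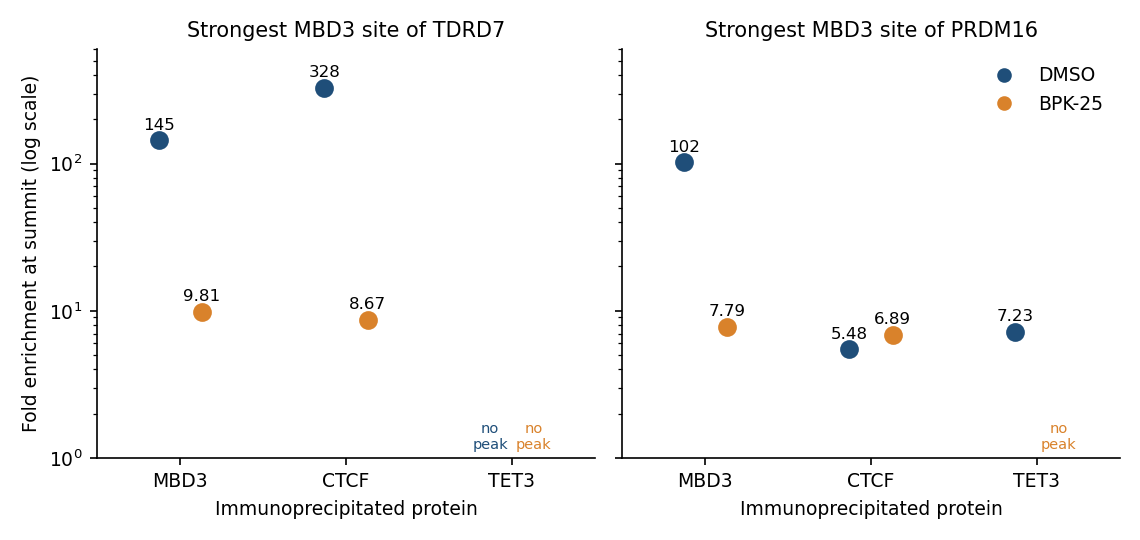
Fold enrichment at the summit (log scale) of MBD3, CTCF and TET3 under DMSO (blue) and BPK-25 (orange) at the strongest DMSO MBD3 site of TDRD7 (left) and PRDM16 (right); each point is the value of 1 pooled peak list. MBD3 went with CTCF at TDRD7 (145 and 328 under DMSO), whereas at PRDM16 MBD3 was at 102 and CTCF at 5.48.

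The PRDM16 MBD3 peak spanned chr1:3163917-3164927, 184 kb into the window. Its pileup was 594 fragments (547 to 644) under DMSO and 36 (25.2 to 49.8) under BPK-25, which is 185 times the genome background with DMSO and 14.0 times it with BPK-25. The ratio of these relative pileups, BPK-25 to DMSO, was 0.0758 (0.0526 to 0.106). For CTCF the pileups were 35 fragments (24.4 to 48.7) and 34 (23.5 to 47.5), 9.51 and 13.2 times the background, with a ratio of 1.39 (0.840 to 2.29). The counting interval of the CTCF ratio holds 1. The site was chosen by its DMSO MBD3 value, the denominator of the MBD3 ratio, so the MBD3 ratio and its interval are a description only.

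Positions within the PRDM16 site differed between targets more than at TDRD7. The DMSO CTCF summit lay 118 bp from the MBD3 summit, and the BPK-25 CTCF summit 194 bp from it. The MBD3 summits of the treatments lay 29 bp apart. The TET3 peak, chr1:3164393-3165352, began inside the MBD3 peak and ended beyond it, with its best summit 189 bp from that of MBD3 and a pileup of 20 fragments (12.2 to 30.9). Its 3 summits had fold enrichments of 7.23, 5.89 and 6.58.

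The ratio of CTCF to MBD3 fold enrichment under DMSO was 2.27 at the TDRD7 site and 0.0537 at the PRDM16 site. Of the 8 other sites among the 10 strongest DMSO MBD3 peaks by -log10 q, 7 had a CTCF peak, with ratios of 1.12 to 5.48, and 1 had none. The MBD3 fold enrichment at these 8 was 8.55 to 86.1 under DMSO (median 55.7) and 4.41 to 13.5 under BPK-25. The lowest DMSO value there belonged to the peak ranked 2 by -log10 q, whose local background was 65.7 times the genome background. TET3 under DMSO had a peak at 4 of the 8, with folds of 3.72 to 6.74, below the 7.23 of the PRDM16 site. These values describe the choice of sites and were not tested.

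The TDRD7 window held few peaks, and its overlaps between treatments could not be told apart from those of the whole lists. MBD3 had 5 peaks under DMSO and 4 under BPK-25, CTCF had 7 and 5, and the TET lists had none. Over chromosome 9 the lists had 23.0 MBD3 and 28.7 CTCF peaks per Mb under DMSO and 71.9 and 72.0 under BPK-25. Per Mb, the window of 100 kb had more peaks than its chromosome under DMSO and fewer under BPK-25. These densities rest on 4 to 7 peaks per list, and no counting interval was computed for them. The DMSO MBD3 count also includes the peak that chose the window. No difference in density from the chromosome is therefore claimed. All 8 sites had a DMSO peak and 3 had a BPK-25 peak, a count of joined sites that was not made over the whole lists. Of the 5 MBD3 peaks under DMSO, 3 overlapped a BPK-25 MBD3 peak, and over the whole list 61.4% did. Of the 7 CTCF peaks under DMSO, 2 overlapped a BPK-25 CTCF peak, against 39.2% over the whole list. With so few peaks the exact intervals are wide, 14.7 to 94.7% for MBD3 and 3.67 to 71.0% for CTCF, and both hold the share of the whole list. In the flanks, the windows of the same length on either side, the counts were 4 of 9 for MBD3 and 4 of 6 for CTCF.

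Of the 5 TDRD7 CTCF peaks of fold enrichment 10 or more under DMSO, only that of the strongest site overlapped a BPK-25 CTCF peak, against 34.7% of such peaks in the whole list. The exact interval of this share, 0.505 to 71.6%, holds that of the whole list. Site 3, chr9:100230700-100231283, had a CTCF fold of 90.2 and an MBD3 fold of 3.12 under DMSO and no peak under BPK-25. Site 4, chr9:100232352-100232776, had CTCF alone at 31.7. Site 7, chr9:100263458-100263864, had CTCF at 28.8 and MBD3 at 6.71, again with no BPK-25 peak. At sites 3 and 7 the CTCF and MBD3 summits lay 40 and 20 bp apart, while MBD3 was many times weaker than CTCF.

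Apart from the strongest, TDRD7 sites 6 and 8 had peaks under both treatments. Site 6, chr9:100260230-100261164, had MBD3 at 2.72 under DMSO and 4.32 under BPK-25, and CTCF at 4.46 under BPK-25 only. Site 8, chr9:100264074-100265573, which crosses the window end, had MBD3 at 7.41 under DMSO and 5.05 under BPK-25, and CTCF at 4.50 and 4.59. The CTCF summits of site 8 lay apart, at 100264409 under DMSO and 100264910 under BPK-25. Those of MBD3 in site 6 were at 100260448 and 100260623. The other sites, 2 and 5, had a DMSO CTCF peak alone, at 3.84 and 26.9. Under BPK-25 no TDRD7 site exceeded a fold of 9.81 for either protein.

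**Figure D2:**
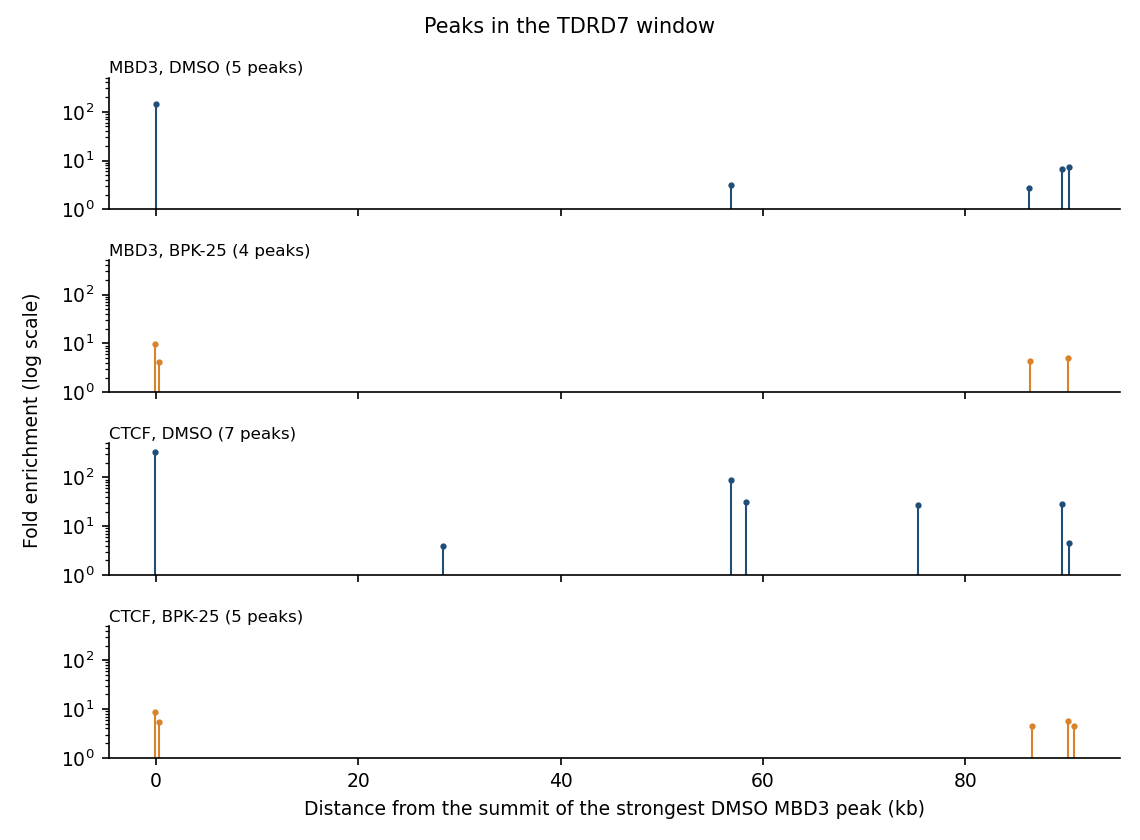
Peaks in the TDRD7 window for MBD3 and CTCF under DMSO (blue) and BPK-25 (orange), drawn at their summits by distance from the strongest DMSO MBD3 summit (kb) and by fold enrichment (log scale). The DMSO CTCF peaks of fold 26.9 to 90.2 away from the strongest site have no counterpart in the BPK-25 list. Over the whole list, 34.7% of DMSO CTCF peaks of fold 10 or more have one.

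Under DMSO, 4 of 5 TDRD7 MBD3 peaks overlapped a CTCF peak (43.3% over the whole list, 55.6% in the flanks), and 4 of 7 CTCF peaks overlapped an MBD3 peak (36.9%). Under BPK-25, all 4 MBD3 peaks overlapped a CTCF peak (69.1% over the whole list, 55.9% in the flanks) and all 5 CTCF peaks an MBD3 peak (69.0%). The exact intervals of the MBD3 shares, 28.4 to 99.5% under DMSO and 39.8 to 100% under BPK-25, hold the shares of the whole lists. The windows of the same length on either side held 2 and 8 MBD3 peaks under DMSO and 25 and 10 under BPK-25. In these counts the peak that crosses the TDRD7 window end is counted in the window and in the flank. The flank shares above leave it out and rest on 9 MBD3 peaks under DMSO and 34 under BPK-25. Both flanks together thus had more MBD3 peaks under BPK-25 than under DMSO, while the TDRD7 window had 1 fewer. That difference of 1 peak depended on the threshold. At a minimum -log10 q of 5 the window had 3 MBD3 peaks under each treatment, and at 10 it had 3 under DMSO and 1 under BPK-25.

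The PRDM16 window was far more densely covered, and its CTCF and MBD3 peaks were more numerous under BPK-25. MBD3 had 125 peaks under DMSO and 301 under BPK-25, covering 15.0% and 37.0% of the window. CTCF had 44 and 298, covering 4.93% and 35.4%. TET3 had 21 and 11, TET1 had 2 and 0, and TET2 had none. Over the whole lists, MBD3 peaks numbered 82358 and 243213 and CTCF peaks 99587 and 245419, so these 2 lists were longer under BPK-25 as a whole, whereas the TET lists were shorter. The difference in number is therefore not called particular to PRDM16.

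Density was high in the surrounding sequence too. Per Mb, the PRDM16 window had 329 MBD3 peaks under DMSO against 32.5 over chromosome 1, and 792 against 90.3 under BPK-25. The flanks of the same length held 99 and 96 MBD3 peaks under DMSO and 214 and 259 under BPK-25. CTCF had 42 and 62 peaks in the flanks under DMSO and 229 and 257 under BPK-25. TET3 differed from this pattern: the flanks held 1 and 4 TET3 peaks under DMSO, against 21 in the window, and 1 and 3 under BPK-25, against 11.

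**Figure D3:**
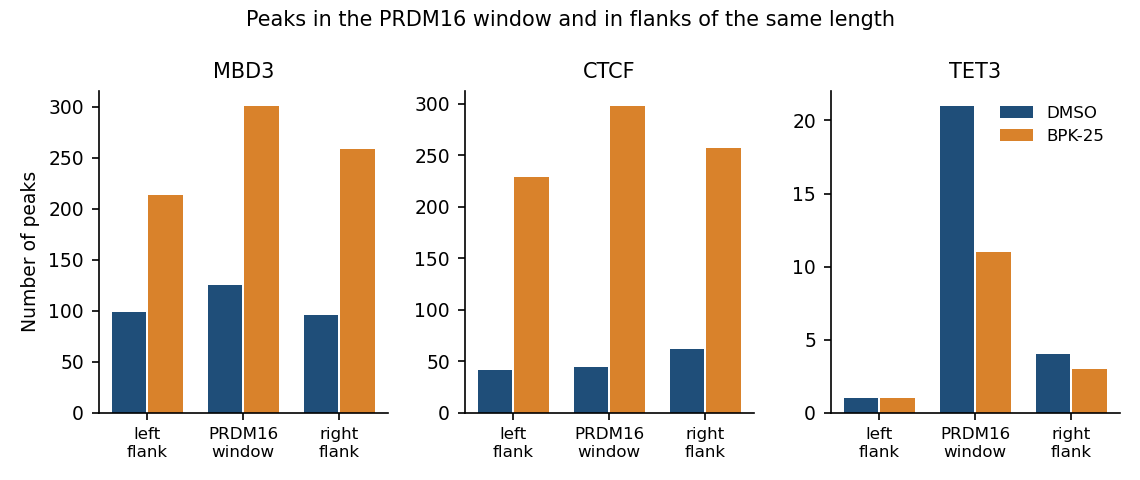
Number of MBD3, CTCF and TET3 peaks under DMSO (blue) and BPK-25 (orange) in the PRDM16 window and in the flanks of the same length on either side; each panel has its own axis starting at 0. MBD3 and CTCF counts in the flanks come near those of the window, whereas TET3 has 21 and 11 peaks in the window and 1 to 4 in a flank.

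High CTCF values in the PRDM16 window were seen mostly under DMSO. There the median fold enrichment was 3.26 under DMSO and 3.99 under BPK-25 for MBD3, and 5.30 and 3.94 for CTCF. CTCF had 13 of 44 peaks at fold 10 or more under DMSO and 5 of 298 under BPK-25, with highest values of 141 and 13.6. Over the whole lists it had 53019 of 99587 and 2311 of 245419, with median folds of 11.3 and 3.71. The difference between treatments is therefore not called particular to PRDM16. MBD3 had 2 window peaks of fold 10 or more under DMSO and 3 under BPK-25, against 5203 and 2267 over the whole lists. Without the strongest site the highest DMSO value of MBD3 in the window was 10.8. Of the 320 sites, 128 had a peak in a DMSO list and 303 in a BPK-25 list. A set of 192 sites had BPK-25 peaks only, and 17 had DMSO peaks only. Joined sites were not counted over the whole lists. There, 21.8% of BPK-25 MBD3 peaks and 16.7% of BPK-25 CTCF peaks overlapped a DMSO peak of the same protein. The excess of sites with BPK-25 peaks only is therefore not called particular to PRDM16.

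**Figure D4:**
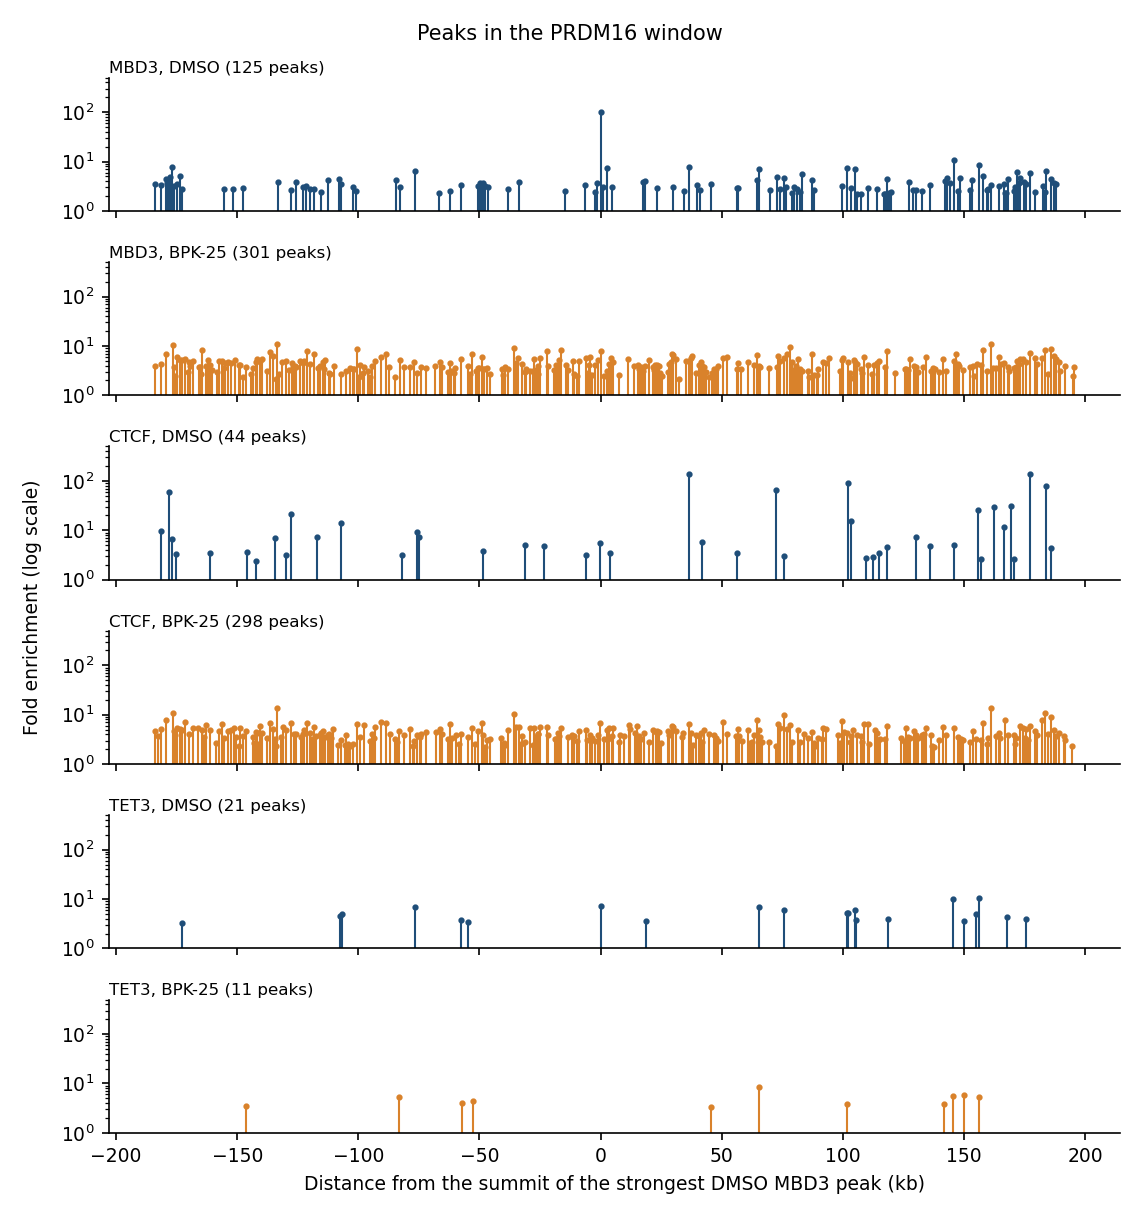
Peaks in the PRDM16 window for MBD3, CTCF and TET3 under DMSO (blue) and BPK-25 (orange), drawn at their summits by distance from the strongest DMSO MBD3 summit (kb) and by fold enrichment (log scale). A single MBD3 peak of fold 102 stands at 0 kb under DMSO, the high DMSO CTCF peaks stand elsewhere, and the BPK-25 MBD3 and CTCF peaks are many and low, up to 11.2 and 13.6.

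In PRDM16 and its flanks, most DMSO peaks met a peak of the same protein in the BPK-25 list. For MBD3, 108 of 125 DMSO peaks, or 86.4% (95% Clopper-Pearson interval 79.1 to 91.9), overlapped a BPK-25 MBD3 peak, against 61.4% over the whole list and 92.8% (88.2 to 96.0) in the flanks. For CTCF it was 36 of 44, or 81.8% (67.3 to 91.8), against 39.2% and 88.5% (80.7 to 93.9). Of the 13 CTCF peaks of fold 10 or more, 10 overlapped a BPK-25 peak, against 34.7%. In the other direction, 111 of 301 BPK-25 MBD3 peaks overlapped a DMSO MBD3 peak (21.8% over the whole list), and 38 of 298 BPK-25 CTCF peaks a DMSO CTCF peak (16.7%). The BPK-25 peaks covered 37.0% of the window for MBD3 and 35.4% for CTCF, and their part in these overlaps was not tested.

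Where DMSO and BPK-25 peaks of PRDM16 overlapped, relative pileup was compared. Relative pileup, the pileup over the genome background, was lower under BPK-25 at 25 of 108 PRDM16 MBD3 peaks, against 39.0% of such peaks over the whole list, with a median ratio of BPK-25 to DMSO of 1.57 (1.22 over the whole list). Among the 10 strongest DMSO MBD3 peaks of the window it was lower at 7, with a median ratio of 0.651, and among the other 98 it was lower at 18, with a median of 1.62. For CTCF it was lower at 19 of 36, against 66.0%, with a median of 0.877 (0.546 over the whole list). All 7 of the 10 strongest CTCF peaks that had a BPK-25 peak were lower, with a median of 0.0798, and 12 of the other 29, with a median of 1.22. At TDRD7, relative pileup was lower at 2 of 3 MBD3 peaks and at 1 of 2 CTCF peaks. The ranking used the DMSO values that are the denominator of these ratios, and the 10 strongest MBD3 peaks include the site that chose the gene, so these splits describe the peaks and show no dependence on strength.

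The strongest CTCF sites of PRDM16 carried modest MBD3 enrichment under DMSO. At the 13 sites with a CTCF fold of 10 or more (11.9 to 141, median 31.7), MBD3 had a peak at 11, with folds of 2.62 to 8.36. Over the whole list, 36.9% of DMSO CTCF peaks of any fold overlapped an MBD3 peak. The share among CTCF peaks of fold 10 or more was not computed there, so the count is not called particular to PRDM16. Site 187, chr1:3198397-3201747, had a CTCF fold of 141 under DMSO and 6.41 under BPK-25, and an MBD3 fold of 7.61 and 5.76. Site 306, chr1:3339668-3342692, had a CTCF fold of 136 and 6.03, with MBD3 at 5.91 and 7.15. Site 238, chr1:3265443-3266709, had a CTCF fold of 90.7 and 4.21, with MBD3 at 7.44 and 4.67. At these 3 sites the CTCF value under DMSO was far above the BPK-25 value, while the MBD3 values of both treatments lay between 4.67 and 7.61. The values are those of the strongest peak anywhere in a site, so they can belong to different places. The MBD3 summits under DMSO and BPK-25 were at 3200687 and 3201436 in site 187 and at 3265872 and 3266470 in site 238. In site 306 they were close, at 3341456 and 3341463. The CTCF summits of site 238 lay apart too, at 3266464 under DMSO and 3266150 under BPK-25.

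The strongest CTCF site with no BPK-25 peak was site 6, chr1:2986198-2986769, near the window start. CTCF stood at 59.4 there and MBD3 at 4.89 under DMSO, with summits 14 bp apart. In the opposite class, site 48, chr1:3030651-3031845, had the highest BPK-25 CTCF fold of the window, 13.6, and no DMSO CTCF peak. MBD3 was at 11.2 there under BPK-25 and 3.81 under DMSO, with summits at 3030819 and 3031104. Site 218, chr1:3242000-3242807, had BPK-25 peaks of MBD3 at 9.57 and CTCF at 6.30 and no DMSO peak.

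In the PRDM16 window, few MBD3 peaks overlapped a CTCF peak under DMSO and most did under BPK-25. Under DMSO, 27 of 125 MBD3 peaks, or 21.6% (14.7 to 29.8), overlapped a CTCF peak, against 43.3% over the whole list and 37.9% (31.1 to 45.2) in the flanks. Under BPK-25, 264 of 301, or 87.7% (83.5 to 91.2), did, against 69.1% and, in the flanks, 87.7% (84.4 to 90.6). Of the CTCF peaks, 25 of 44, or 56.8% (41.0 to 71.7), overlapped an MBD3 peak under DMSO (36.9% over the whole list) and 262 of 298 under BPK-25 (69.0%). The CTCF peaks covered 4.93% of the window under DMSO and 35.4% under BPK-25. The part of their number and coverage in the contrast between the MBD3 shares was not tested. The contrast was smaller among strong peaks: with a minimum -log10 q of 10, the MBD3 shares were 47.6% under DMSO and 65.9% under BPK-25, against 63.7% and 66.0% over the whole lists. Peaks of both proteins in all 4 lists were found at 27 of the 320 sites, a count that was not made over the whole lists.

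The values of the proteins also lay closer together under BPK-25. At the 28 sites with both proteins under DMSO, the ratio of MBD3 to CTCF fold enrichment ran from 0.0435 to 18.6, with a median of 0.711, and Spearman's rho across these sites was 0.477. At the 235 sites with both under BPK-25 the ratio ran from 0.580 to 2.55, with a median of 0.986, and rho was 0.688. The folds themselves spanned less under BPK-25, with highest window values of 11.2 for MBD3 and 13.6 for CTCF, against 102 and 141 under DMSO. The part of this narrower span in the ratios was not tested. The ratios were not computed over the flanks or the whole lists, so they are not called particular to PRDM16. Summits of the proteins lay within 100 bp at 14 of 28 sites under DMSO and at 175 of 235 under BPK-25, with median distances of 97 and 34 bp. These distances run between the strongest peaks of each protein anywhere in a site, so wide sites can hold distant summits. They were not computed over the flanks or the whole lists either, and are not called particular to PRDM16. The points share 1 cell line and their local sequence, and the labels give the 2 antibodies the same input, so rho is a description without a test.

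**Figure D5:**
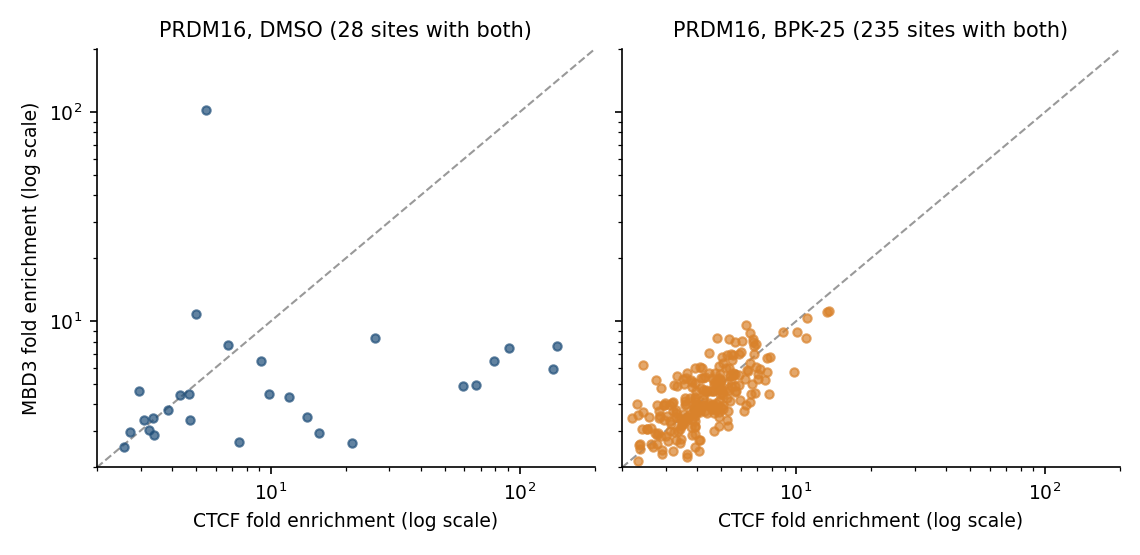
MBD3 against CTCF fold enrichment (both log scale) at the PRDM16 sites with peaks of both proteins under DMSO (left, 28 sites) and BPK-25 (right, 235 sites); each point is a site and the dashed line marks equal values. Under DMSO the site with MBD3 at 102 and CTCF at 5.48 lies far above the line and the sites of high CTCF fold lie far below it, whereas the BPK-25 ratios stay between 0.580 and 2.55.

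TET3 peaks of PRDM16 overlapped MBD3 peaks, and peaks of the other treatment, at shares near those of the whole TET3 list under DMSO. Of the 21 DMSO TET3 peaks, 18 overlapped a DMSO MBD3 peak, or 85.7% (63.7 to 97.0), near the 82.6% of the whole TET3 list. Of the 11 BPK-25 TET3 peaks, 9 overlapped a BPK-25 MBD3 peak, with an interval of 48.2 to 97.7%, against 44.8%. A BPK-25 TET3 peak was found at 6 of the 21 DMSO peaks, or 28.6% (11.3 to 52.2), near the 31.9% of the whole list. The median fold enrichment of TET3 was 4.92 under DMSO and 4.34 under BPK-25.

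The 2 strongest DMSO TET3 sites were also the only TET1 sites of PRDM16, and both lay near the end of the window. Site 288, chr1:3318555-3321477, had TET3 at 10.6 under DMSO and 5.23 under BPK-25, TET1 at 7.50 under DMSO with no BPK-25 peak, and MBD3 at 8.36 and 4.09. CTCF was at 26.2 under DMSO and 3.21 under BPK-25 there, but with summits apart, at 3320107 and 3319463. Site 280, chr1:3309372-3311334, had TET3 at 10.2 and 5.67, TET1 at 4.57 with no BPK-25 peak, and MBD3 at 10.8 and 7.0, while CTCF was low under both treatments, at 5.01 and 5.46. TET3 and MBD3 were higher under DMSO at both sites. The MBD3 summits under DMSO and BPK-25 lay apart, at 3320441 and 3321178 in site 288 and at 3310242 and 3311220 in site 280.

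The strongest BPK-25 TET3 peaks lay elsewhere. Site 212, chr1:3229447-3230459, had TET3 at 8.35 under BPK-25 and 7.01 under DMSO, while MBD3 was at 3.88 and 7.20. In units of the genome background, the TET3 pileup there was 16.4 with BPK-25 and 22.4 with DMSO, so its fold and its relative pileup differed in opposite directions. Site 284, chr1:3313980-3314474, had TET3 at 5.75 under BPK-25 and 3.53 under DMSO, with relative pileups of 9.12 and 9.43, and MBD3 and CTCF peaks under BPK-25 only, at 3.32 and 3.12.

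Along PRDM16, the DMSO peaks of MBD3, CTCF and TET3 were most frequent at its end. Over 4 equal stretches of 95 kb, MBD3 had 27, 22, 26 and 50 peaks under DMSO, CTCF had 12, 9, 5 and 18, and TET3 had 3, 4, 3 and 11. Under BPK-25 the MBD3 peaks were spread evenly, at 82, 73, 73 and 73, and so were the CTCF peaks, at 80, 74, 72 and 72. TET3 under BPK-25 had 1, 3, 2 and 5. The strongest MBD3 site lay in the second stretch, apart from the dense last one.

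The windows were set by position, and peaks continue beyond them. The DMSO MBD3 peaks nearest to the windows had folds of 4.84, at 3.27 kb before TDRD7, and 2.40, at 0.363 kb after it, against 145 and 7.41 for the first and last peak inside. At PRDM16 they were 2.88, at 1.16 kb before, and 15.0, at 9.47 kb after, against 3.54 and 3.43 inside. The peak after the PRDM16 window, chr1:3369469-3371975, thus had a higher fold than every PRDM16 MBD3 peak under DMSO except the strongest.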

How the data were processed

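Peak lists of ChIP-seq in HEK293T cells were used, 1 per target and treatment. The submitters' processing notes name MACS2 2.1.2, Bowtie2 2.3.4, bedtools 2.25.0, FastQC 0.11.7, SAMtools 1.9 and the build hg19; their settings were not given in the sources used here. Since the labels name the same list for every sample of a group, calling on pooled samples with input as control was assumed. The deposited columns used are the authors' fold enrichment at a summit (a ratio of pileup to local background), the -log10 p-value and the -log10 q-value. The deposited display score was not used. The lowest values correspond to a q of 0.05.

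Intervals that overlapped or touched were merged within a list, keeping the summit of highest -log10 q (Python 3.11.15, pandas 2.3.3, SciPy 1.17.1). Pileup and local background were solved from fold enrichment and the Poisson -log10 p; below 200 fragments, 100% of the pileups came out within 0.02 of a whole number. Coordinates are 1-based. An overlap is 1 bp or more. The value of a site in a list is that of its strongest peak by -log10 q, wherever in the site that summit lies. The steps were tested on simulated data. The lowest local background, the depth measure, was 1.25 to 3.68 fragments with DMSO and 1.05 to 2.58 with BPK-25; read totals were not used.

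The genes, windows, thresholds and comparisons were chosen with earlier results of these data known. Sites named are, per gene, the strongest DMSO MBD3 site, the next 4, the 3 strongest DMSO CTCF sites, the strongest site of either treatment alone for MBD3 and for CTCF, all TET1 and TET2 sites and the 2 strongest of each TET3 list. TDRD7 sites 2 and 5, the remaining ones of that window, were named after their values were seen. Results were recomputed with only peaks whose summit lies in the window, with a minimum -log10 q of 5 and of 10, with merging across gaps of up to 500 bp, with 50% of a peak required to be covered, and with equal numbers of the strongest peaks in both lists. No hg19 annotation was used, so exons and introns are not given.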

Additional observations from a re-analysis of the deposited data

How the results depend on the processing

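Of 84 alternatives, 29 moved a count by over 1.5 times or a share out of its counting interval, and 55 did neither; all 4 treatment ratios at the strongest sites were among the 55. The intervals at TDRD7 are wide, so its shares could still differ much: the MBD3 share overlapping BPK-25 peaks was 33.3 to 75% against the 60% reported, and the CTCF share 14.3 to 33.3% against 28.6%. Their order against the whole list also turned: at a -log10 q of 5 the MBD3 share was 66.7% against 58.5% and the CTCF share 28.6% against 28.1%, at 10 the CTCF share was 20% against 16.8%, with equal numbers of strongest peaks it was 28.6% against 27.8%, and with merging the MBD3 share was 75% against 61.9%. At TDRD7, MBD3 peaks under DMSO numbered 3 at a -log10 q of 5 or more and 3 at 10 or more, BPK-25 MBD3 peaks 3 at 5 and 1 at 10, and BPK-25 CTCF peaks 2 at 10 and 3 with intervals within 500 bp merged; 100% of the DMSO MBD3 peaks overlapped CTCF at 5. At PRDM16, in the order of a -log10 q of 5 and of 10, MBD3 peaks numbered 53 and 21 with DMSO. With BPK-25 they numbered 196 and 85, and CTCF peaks 198 and 84. DMSO CTCF peaks numbered 27 at 10. Merging within 500 bp gave 160 MBD3 and 168 CTCF peaks under BPK-25. The share of PRDM16 DMSO MBD3 peaks overlapping BPK-25 MBD3 peaks was 73.6% at 5, 66.7% at 10, 74.4% with 50% of the peak covered and 57.6% with equal numbers of strongest peaks, against 58.5%, 51.5%, 52.8% and 41.7% over the whole list. For CTCF it was 64.7% at 5, 40.7% at 10 and 56.8% with equal numbers, against 28.1%, 16.8% and 27.8%. The share of MBD3 peaks overlapping CTCF under DMSO was 32.1% at 5, 47.6% at 10 and 12.8% with 50% covered, against 58.0%, 63.7% and 35.5%. Under BPK-25 it was 80.1% at 5, 65.9% at 10, 92.5% with merging and 79.1% with 50% covered, against 68.8%, 66.0%, 68.6% and 63.6%. At 10 it was thus no longer above the share of the whole list. Stricter thresholds leave fewer peaks in both lists of a comparison, and why the shares moved was not tested.

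No paired analysis was possible because each list pools the replicates of its group, and for the same reason no replicate could be left out. The pooled depth limits weak peaks most: at 34 fragments the counting interval already spans 23.5 to 47.5.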
